A study of Mus musculus with 23 samples.

Results

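Retinoic acid is the signalling form of vitamin A, and its level in a tissue is set by the enzymes that make it, the enzymes that break it down and the proteins that carry it to its receptors. The 9 genes described here cover these roles: 3 aldehyde dehydrogenases that make retinoic acid (Aldh1a1, Aldh1a2 and Aldh1a3), 3 cytochrome P450 enzymes that oxidise it to less active products (Cyp26a1, Cyp26b1 and Cyp26c1), 2 cellular retinoic acid binding proteins (Crabp1 and Crabp2) and the receptor Rarb. They were taken by symbol from the 54347 genes of the deposited table, and all 9 were found there. As background, retinol is first oxidised reversibly to retinaldehyde, the aldehyde dehydrogenases carry out the irreversible step to retinoic acid, and the acid then binds retinoic acid receptors that pair with retinoid X receptors on DNA. Cells with CYP26 enzymes clear retinoic acid, so neighbouring tissues that make it and that clear it can form a source and a sink. Vitamin A status has long been known to affect the epithelium and the enamel of the continuously growing rodent incisor.

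RNA was sequenced from cells of the labial cervical loop, the fold of epithelium at the base of the growing lower incisor, taken from mice at postnatal day 2. The mice carried a Sox2-GFP allele, in which green fluorescent protein is driven by the gene's own promoter, and cells were sorted by fluorescence. The Sox2-positive fraction is what the submitters call dental epithelial stem cells (DESC), and the Sox2-negative fraction is the remainder of the region. All groups share this reporter, no agent was given, and both populations were prepared in batch A and again in batch B, on another day and from other mice. Batch A gave 6 Sox2-negative and 6 Sox2-positive libraries, and batch B gave 4 Sox2-negative and 7 Sox2-positive libraries, all made with the Smart-seq2 protocol from cells in bulk. The labels do not say which libraries of a batch came from separate mice, so the p-values below measure the spread between libraries, which may be technical.

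Total estimated counts ran from 2305778 to 9541443 per library, with a median of 4831091, and levels are given as counts scaled to a common library total (CPM) after trimmed-mean (TMM) scaling. A level of 3 counts, taken as the detection floor, corresponded to between 0.314 and 1.30 CPM. Such floors cover counting error only. Sox2 itself ran from 2.55 to 20.3 CPM in the Sox2-positive libraries and reached at most 1.14 CPM in a Sox2-negative library. All 8 epithelial markers were higher and all 8 mesenchymal markers lower in Sox2-positive cells, in each batch. Summed epithelial markers ran from 144 to 391 CPM in Sox2-negative and from 3686 to 5955 CPM in Sox2-positive libraries. Summed mesenchymal markers ran from 10388 to 13390 CPM in Sox2-negative libraries, from 1222 to 1772 CPM in Sox2-positive libraries of batch A and from 597 to 677 CPM in Sox2-positive libraries of batch B. Sox2-negative libraries also held endothelial, leukocyte, erythroid, odontoblast and ameloblast markers. Sox2-positive libraries also held markers beyond the epithelial list. Glial and neural crest markers were higher in them than in Sox2-negative libraries (6 of 6 tested in batch A, 4 of 5 in batch B), as were skeletal muscle markers in batch B (4 of 4), and ameloblast markers summed to 289 to 350 CPM in those of batch A. Neither population was pure by these markers, and the part of other cell types in the results was not tested. In such bulk samples, fewer cells of a type and less RNA per cell cannot be told apart. For every member below, a difference between the populations and a difference in which cell types they hold also cannot be told apart.

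The members lie far apart in the mouse genome (build mm10), except that Cyp26c1 and Cyp26a1 are neighbours. Cyp26c1 (chr19:37685581-37693398) and Cyp26a1 (chr19:37697798-37701536) lie on the same strand, 4399 bases apart, with 0 protein-coding genes between them. Aldh1a1 is on the same chromosome (chr19:20492715-20643465), Aldh1a2 and Crabp1 are on chromosome 9 (chr9:71215789-71296243 and chr9:54764748-54773110), and Aldh1a3 is on chromosome 7 (chr7:66390890-66427517). Crabp2 is on chromosome 3 (chr3:87948666-87953376), Cyp26b1 on chromosome 6 (chr6:84571414-84593908) and Rarb on chromosome 14 (chr14:16430839-16819156).

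Retinoic acid receptors bind paired copies of a short motif, and the promoters of Cyp26a1 and Rarb are textbook examples of genes that retinoic acid induces through such pairs. The 250 bases before the RefSeq start were searched on both strands for direct repeats of this motif spaced by 1, 2 or 5 bases. A copy could read AGGTCA, the consensus of the receptor family, or one of its close variants, namely AGTTCA or the related forms GGGTCA and, with both changes made, GGTTCA. Promoter sequence was at hand for 7 of the 9 members, in 8 windows, and was lacking for Aldh1a3 and Crabp2. Of the members searched, 2 held a repeat, both with the spacing of 5 bases. Both promoters were known examples beforehand, and the copies allowed include those found in them. Finding these repeats, and the shares of windows given below, are therefore descriptions and no test of the members. The 2 repeats are shown for their sequence. Each is printed 5′ to 3′ on the gene's own strand (RefSeq, GRCm38.p6), with the motif copies in capitals and 6 bases on either side.
Cyp26a1, chr19:37697770-37697798, plus strand: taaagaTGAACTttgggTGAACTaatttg
Rarb, chr14:16575507-16575535, minus strand: gggaagGGTTCAccgaaAGTTCActcgca
The Cyp26a1 repeat lies between 32 and 16 bases upstream of the RefSeq start and reads on the opposite strand, so AGTTCA appears there as TGAACT. The Rarb repeat lies between 53 and 37 bases upstream of the RefSeq start, on the gene's own strand. In the GENCODE M21 annotation, 2 exons on that strand overlap it. A repeat of this spacing was found in 29 of 32851 promoter windows (0.0883%), and a repeat of any of the 3 spacings in 140 (0.426%). A match describes these letters and does not show that a receptor binds there.

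**Figure D1:**
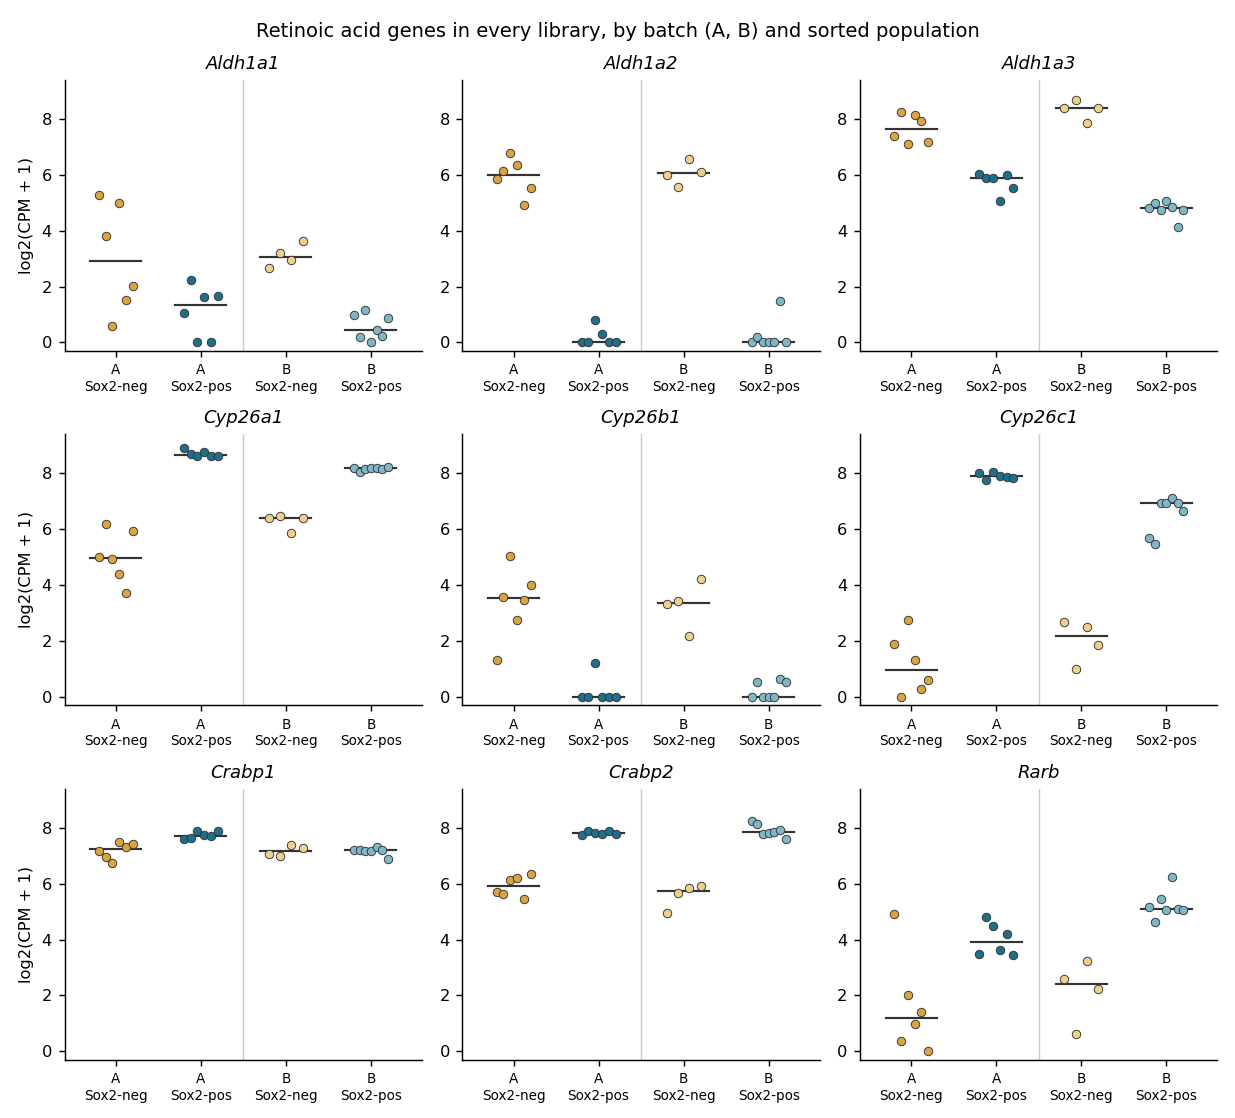
Level of each of the 9 genes in each library, as log2(CPM + 1), by batch (A, B) and sorted population; points are libraries and the horizontal line is the median of the group (6, 6, 4 and 7 libraries). Aldh1a2 and Cyp26b1 lie at or near 0 in both Sox2-positive groups, and Cyp26a1, Cyp26c1 and Crabp2 lie higher in every Sox2-positive library than in any Sox2-negative library of the same batch.

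The 3 enzymes that make retinoic acid were lower in Sox2-positive cells, in each batch. Aldh1a2, the main retinoic acid synthesising enzyme of many embryonic mesenchymal tissues, was nearly absent from Sox2-positive libraries. In batch A its level was 64.8 ± 28.2 CPM in Sox2-negative libraries (SD, n = 6; lowest 29.0, median 63.0, highest 109). Among the 6 Sox2-positive libraries of batch A, 4 had no Aldh1a2 count, and the highest, replicate 3, had 4 counts (0.750 CPM). The Sox2-negative libraries of batch B had 62.1, 46.7, 93.1 and 68.3 CPM, and 5 of the 7 Sox2-positive libraries of batch B had none. Of the 11 Aldh1a2 counts in that group, 10 came from replicate 6, at 1.82 CPM. The groups did not overlap in either batch. The log2 difference, Sox2-positive minus Sox2-negative, was -8.41 in batch A (SE 0.68, edgeR adjusted p = 6.86e-08) and -7.56 in batch B (SE 0.61, edgeR adjusted p = 4.14e-08). Because the Sox2-positive level rests on so few counts, leaving out 1 library moved these values to -9.90 (without batch A Sox2-positive replicate 3) and -10.16 (without batch B Sox2-positive replicate 6).

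Aldh1a3 was lower in Sox2-positive cells too, but per length it made up most of the ALDH1A level measured there. It stood at 212 ± 72.9 CPM in Sox2-negative libraries of batch A (SD, n = 6; lowest 135, median 204, highest 299.8) and at 53.3 ± 12.03 CPM in Sox2-positive libraries of batch A (n = 6; lowest 32.7, median 57.5, highest 63.4). The Sox2-negative libraries of batch B had 334, 408, 232 and 336 CPM, against 26.7 ± 5.11 CPM in the Sox2-positive libraries of batch B (n = 7; lowest 16.7, median 26.7, highest 32.5). The lowest Sox2-negative library of each batch lay well above the highest Sox2-positive one. Expressed as a fold, Aldh1a3 was 3.94-fold lower in Sox2-positive cells in batch A (log2 difference -1.98, SE 0.23, edgeR adjusted p = 4.37e-06) and 11.7-fold lower in batch B (-3.54, SE 0.17, edgeR adjusted p = 8.26e-11).

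Aldh1a1, an enzyme widely expressed in adult epithelia, was uneven between libraries, with a coefficient of variation of 111% in Sox2-negative libraries of batch A. Its level there ran from 0.492 to 37.5 CPM with a median of 8.09 (2 to 145 counts, n = 6). The Sox2-positive libraries of batch A ran from 0 to 3.69 CPM with a median of 1.58 (n = 6), so the groups overlapped. In batch B the Sox2-negative libraries had 5.27, 8.10, 6.71 and 11.4 CPM, and the 7 Sox2-positive libraries ran from 0 to 1.21 CPM with a median of 0.354, without overlap. The difference passed the test in batch A (log2 -3.20, SE 1.09, edgeR adjusted p = 0.0254) and in batch B (-3.73, SE 0.66, edgeR adjusted p = 0.000177). The batch A call was lost without Sox2-negative replicate 1 (adjusted p = 0.0703), Sox2-negative replicate 4 (0.0574) or Sox2-positive replicate 1 (0.0518), all by edgeR, and the difference ran from -3.45 to -2.65 over the 10 of 12 leave-one-out fits in which the gene was past the filter.

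Per length, the make-up of this enzyme family differed between the populations. The share of each gene in the summed ALDH1A level was taken from CPM divided by the length of the longest coding transcript. Aldh1a3 made up 63.8% ± 13.5 of the summed level in Sox2-negative libraries of batch A (SD, n = 6) and 73.5% ± 9.51 in Sox2-negative libraries of batch B (n = 4). Its share was 95.2% ± 3.90 in Sox2-positive libraries of batch A (n = 6) and 95.05% ± 5.15 in Sox2-positive libraries of batch B (n = 7). Aldh1a2 held most of the rest in Sox2-negative libraries, at 30.3% ± 13.3 in batch A and 23.9% ± 9.41 in batch B. Its share in Sox2-positive libraries was 0.491% ± 0.818 in batch A and 2.11% ± 5.29 in batch B, where replicate 6, with 10 of the 11 counts, had 14.1%. These shares depend on the transcript length used, since Aldh1a3 has coding transcripts of unequal length (longest 3443 bases, median 1281).

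**Figure D2:**
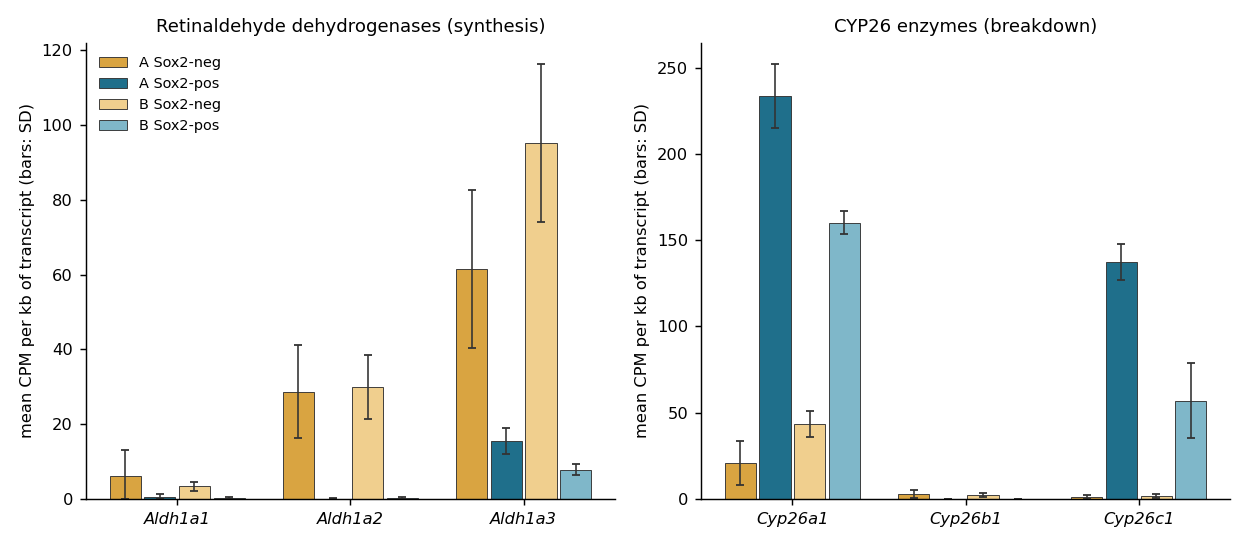
Mean level per length (CPM per kilobase of the longest coding transcript) of the 3 ALDH1A enzymes (left) and the 3 CYP26 enzymes (right, on its own scale) in the 4 groups, as columns from 0 with the SD over 6, 6, 4 and 7 libraries, stopped at 0. Aldh1a2 and Aldh1a3 are highest in the Sox2-negative groups, while Cyp26a1 and Cyp26c1 are highest in the Sox2-positive groups.

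Of the enzymes that break retinoic acid down, Cyp26a1 and Cyp26c1 were higher in Sox2-positive cells and Cyp26b1 was lower. Cyp26a1, an enzyme that retinoic acid itself is known to induce, stood at 418 ± 33.2 CPM in Sox2-positive libraries of batch A (SD, n = 6; lowest 389, median 407, highest 475). The Sox2-negative libraries of batch A had 37.3 ± 23.1 CPM (n = 6; lowest 12.2, median 30.4, highest 71.3). In batch B the Sox2-negative libraries had 83.4, 87.1, 57.5 and 83.3 CPM, and the Sox2-positive libraries 287 ± 11.9 CPM (n = 7; lowest 264, median 292, highest 300.0). The populations were therefore far apart in both batches, and the Sox2-negative libraries of batch B were above most of those of batch A. Cyp26a1 was 11.2-fold higher in Sox2-positive cells in batch A (log2 difference 3.49, SE 0.33, edgeR adjusted p = 4.62e-07) and 3.87-fold higher in batch B (1.95, SE 0.13, edgeR adjusted p = 2.44e-09).

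Cyp26c1, its neighbour on the chromosome, had the largest log2 difference of the members that were higher in Sox2-positive cells. It was low in Sox2-negative libraries, from 0 to 5.80 CPM in batch A (n = 6, median 1.01) and at 5.45, 1.00, 4.61 and 2.64 CPM in batch B. It was over the floor of 3 counts in 3 of 6 Sox2-negative libraries of batch A and in all 4 of batch B. Batch A Sox2-positive libraries had 239.8 ± 18.2 CPM (SD, n = 6; lowest 216, median 236, highest 264). Batch B Sox2-positive libraries had 99.5 ± 37.7 CPM (n = 7; lowest 43.1, median 121, highest 139). Every Sox2-positive library was thus far above every Sox2-negative one, but the batch B group was itself split: libraries 1 and 2 had 43.1 to 50.9 CPM and the other 5 had 99.1 to 139 CPM. The same 2 libraries had the lowest summed epithelial markers of that group, at 4017 and 3816 CPM against 5614 to 5955 CPM in the other 5, and the part of this in the Cyp26c1 and Crabp2 values was not tested. The log2 difference was 7.09 in batch A (SE 0.51, edgeR adjusted p = 1.97e-08) and 4.89 in batch B (SE 0.45, edgeR adjusted p = 1.64e-07). Without batch A Sox2-negative replicate 3 the batch A value was 7.92.

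Cyp26b1, the third enzyme that breaks retinoic acid down, went the other way at a low level. In batch A it ran from 1.52 to 31.9 CPM in Sox2-negative libraries (n = 6, median 10.5). It was at 0 counts in 5 of 6 Sox2-positive libraries, and the 7 counts of that group all came from replicate 3 (1.32 CPM). The Sox2-negative libraries of batch B had 8.95, 9.71, 3.51 and 17.4 CPM, and 4 of the 7 Sox2-positive libraries had no count, with a highest value of 0.545 CPM. No Sox2-positive library reached the lowest Sox2-negative library of its batch. The log2 difference was -5.40 in batch B (SE 0.77, edgeR adjusted p = 2.33e-05). In batch A the gene was not past the filter on low counts. Without that filter the batch A difference was -5.60 (SE 1.09, edgeR adjusted p = 0.000192). It was also past the filter in 7 leave-one-out fits. Without Sox2-positive replicate 3, the library with all of that group's counts, the fitted value was -8.84 (edgeR adjusted p = 0.000233); fitted against a group at 0, it depends on the prior count and is no bound. The other 6 fits gave -5.88 to -5.37.

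Within the CYP26 family the balance per length also differed between groups. Cyp26a1 made up 62.9% ± 2.20 and Cyp26c1 37.0% ± 2.18 of the summed level per length in Sox2-positive libraries of batch A (SD, n = 6). In Sox2-positive libraries of batch B these shares were 74.5% ± 7.68 and 25.5% ± 7.68 (n = 7). In Sox2-negative libraries Cyp26a1 made up 82.4% ± 12.3 in batch A (n = 6) and 91.2% ± 2.34 in batch B (n = 4). Cyp26b1 made up 12.8% ± 10.05 and 4.43% ± 2.20 there, and at most 0.0788% in any Sox2-positive library.

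The 2 binding proteins differed from each other. Crabp2, which binds retinoic acid in the cytoplasm and is known to hand it to the receptors, was higher in every Sox2-positive library. Its level was 60.6 ± 15.2 CPM in Sox2-negative libraries of batch A (SD, n = 6; lowest 42.6, median 60.1, highest 80.3) and 223 ± 8.99 CPM in Sox2-positive libraries of batch A (n = 6; lowest 211, median 222, highest 233). The Sox2-negative libraries of batch B had 29.7, 49.4, 55.9 and 58.9 CPM, and the Sox2-positive libraries 241 ± 36.4 CPM (n = 7; lowest 195, median 232, highest 301). In the latter group, libraries 1 and 2, which had the least Cyp26c1, had the most Crabp2, at 277 to 301 CPM against 195 to 243 CPM in the other 5. Crabp2 was 3.69-fold higher in Sox2-positive cells in batch A (log2 difference 1.88, SE 0.16, edgeR adjusted p = 1.44e-07) and 5.23-fold higher in batch B (2.39, SE 0.19, edgeR adjusted p = 3.29e-08).

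Crabp1, the binding protein often linked to storage and breakdown of retinoic acid, was at 106 CPM or more in every library. Batch A Sox2-negative libraries had 146 ± 28.1 CPM (SD, n = 6; lowest 106, median 149, highest 179) and Sox2-positive libraries of batch A 213 ± 18.5 CPM (n = 6; lowest 191, median 209, highest 235). The Sox2-negative libraries of batch B had 132, 125, 165 and 155 CPM, and the Sox2-positive libraries 143 ± 11.8 CPM (n = 7; lowest 118, median 146, highest 156). The groups were apart in batch A and overlapped in batch B. Crabp1 was higher in Sox2-positive cells in batch A (log2 difference 0.55, SE 0.14, edgeR adjusted p = 0.00402). In batch B the difference was 0.06 (SE 0.12, edgeR adjusted p = 0.719). An approximate interval of 2 standard errors ran from -0.19 to 0.30, which leaves out the value of batch A. The difference between the batches was tested directly and did not pass (interaction -0.56, SE 0.18, edgeR adjusted p = 0.0604). It passed with DESeq2 (-0.52, adjusted p = 0.0475) and without Sox2-negative replicate 4 (edgeR adjusted p = 0.03) or 6 (0.0376) of batch A.

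Rarb, the receptor that retinoic acid itself is known to induce, was higher in Sox2-positive cells in batch B. The Sox2-negative libraries of batch B had 4.99, 0.541, 8.44 and 3.68 CPM, and the Sox2-positive libraries 39.1 ± 16.6 CPM (SD, n = 7; lowest 23.6, median 33.1, highest 74.6), without overlap. The log2 difference was 3.19 (SE 0.49, edgeR adjusted p = 4.39e-05). In batch A, Sox2-positive libraries had 16.2 ± 6.89 CPM (n = 6; lowest 9.95, median 14.4, highest 26.8). Of the 6 Sox2-negative libraries of batch A, 5 lay between 0 and 3.05 CPM, while replicate 1 stood at 29.2 CPM, above every Sox2-positive library of its batch. With that library the batch A difference was 1.47 (SE 0.96, edgeR adjusted p = 0.231). Without it the difference was 3.71 (SE 0.79, edgeR adjusted p = 0.00168). With that library kept and the library number as a replicate block, the difference was 3.45 (edgeR adjusted p = 0.0286). No label makes same-numbered libraries pairs, so no conclusion is drawn from the block fit. Rarb counts carry a further limit, since 1793 of the 5265 exon bases annotated for the gene (34.1%) also lie in exons of Top2b on the opposite strand. No strand setting is given in the sources used here, so reads from that stretch cannot be assigned with certainty. Top2b, a DNA topoisomerase, averaged 108 ± 39.2 CPM in Sox2-negative and 121 ± 31.0 CPM in Sox2-positive libraries of batch A (SD, n = 6 each), and 168 ± 12.4 (n = 4) and 205 ± 58.6 CPM (n = 7) in those of batch B, and its log2 differences between the populations were 0.16 in batch A (edgeR adjusted p = 0.601) and 0.36 in batch B (edgeR adjusted p = 0.103).

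Counted together, 4 members were higher and 3 lower among the 8 tested in batch A, where 43.4% of all 14296 genes tested were called (19.3% higher, 24.2% lower). In batch B, 4 were higher and 4 lower among 9 tested, where 54.7% of 15765 genes were called (27.1% higher, 27.6% lower). The fit of all 23 libraries with batch as a covariate called 9 of 9, with 5 higher and 4 lower, where 57.5% of 17190 genes were called (24.9% higher, 32.5% lower). With more than 40 in 100 genes called in each comparison, a call by itself sets a gene little apart. The groups of libraries did not overlap for 6 of the 8 members tested in batch A, with 4 above and 2 below, against 28.1% of all genes tested (12.4% above, 15.7% below), and Cyp26b1, not tested there, did not overlap either. In batch B they did not overlap for 8 of 9, with 4 above and 4 below, against 38.1% (17.4% above, 20.7% below). The members were chosen with earlier results of these data known. Their shares set beside those of all genes, here and below, are therefore descriptions and not tests of an excess. In the fit of both batches the log2 differences were -3.47 for Aldh1a1, -7.98 for Aldh1a2, -2.76 for Aldh1a3, 2.71 for Cyp26a1, -5.57 for Cyp26b1, 5.88 for Cyp26c1, 0.28 for Crabp1, 2.08 for Crabp2 and 2.20 for Rarb. Their median was 0.28, against -0.12 over all genes tested. Edges of this list were Crabp1 (SE 0.11, edgeR adjusted p = 0.0243) and Rarb (SE 0.63, edgeR adjusted p = 0.00391, with a difference of 3.43 without batch A Sox2-negative replicate 1). DESeq2 gave no adjusted p for Rarb in that fit.

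**Figure D3:**
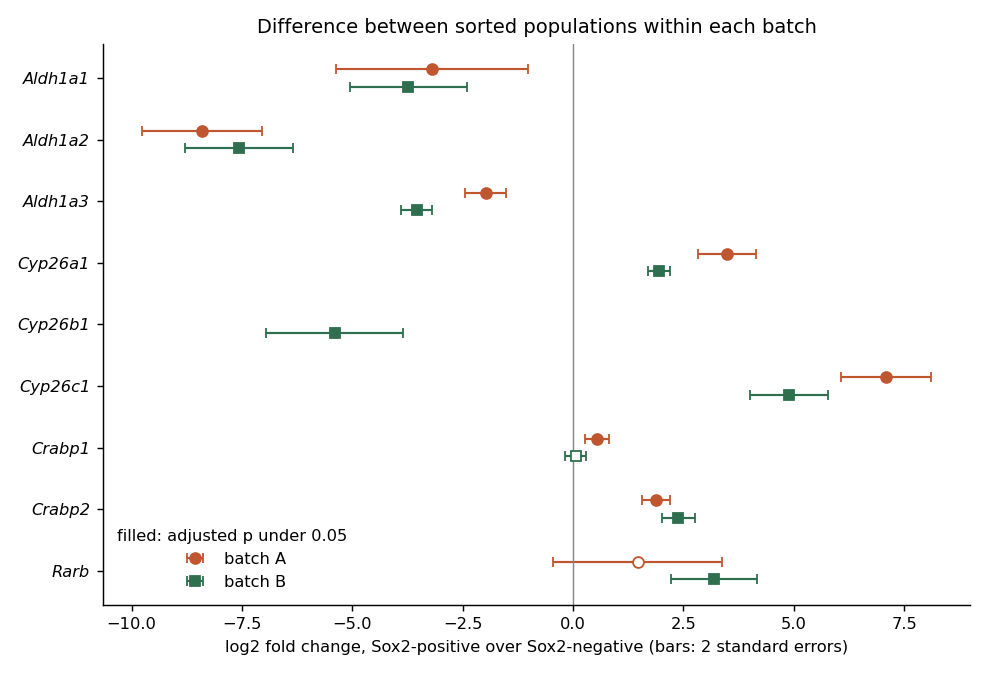
Log2 fold change of each of the 9 genes, Sox2-positive over Sox2-negative, in batch A (circles) and batch B (squares), with bars of 2 standard errors and filled symbols for an adjusted p under 0.05. Aldh1a1, Aldh1a2 and Aldh1a3 lie below 0 and Cyp26a1, Cyp26c1 and Crabp2 above 0 in both batches, and Cyp26b1, below 0 in batch B, was not past the filter in batch A.

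The size of the population difference itself differed between batches for 3 members, where 7.04% of all genes tested did (2.82% positive, 4.22% negative). For Aldh1a3 the batch B difference was the more negative one (interaction -1.63, SE 0.30, edgeR adjusted p = 0.000912). For Cyp26a1 the batch B difference was smaller (interaction -1.60, SE 0.36, edgeR adjusted p = 0.00499), and for Cyp26c1 likewise (-2.26, SE 0.67, edgeR adjusted p = 0.0392). The Cyp26c1 call was the least firm, as it was lost in 15 of 23 leave-one-out fits (adjusted p from 0.00326 to 0.139). With the batch B libraries numbered 1 and 2 of both populations left out, the Aldh1a3 interaction was still called. Those of Cyp26a1 (-1.45, edgeR adjusted p = 0.0925) and Cyp26c1 (-2.06, edgeR adjusted p = 0.129) were not, in a fit with 4 fewer libraries.

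Between batches within one population, the members moved as follows, batch B minus batch A. In Sox2-positive cells 3 members were lower in batch B, where 10.4% of all genes tested differed (4.85% higher, 5.54% lower): Aldh1a3 (log2 -0.997, SE 0.20, edgeR adjusted p = 0.00131), Crabp1 (-0.57, SE 0.12, edgeR adjusted p = 0.00138) and Cyp26c1 (-1.27, SE 0.35, edgeR adjusted p = 0.0163). The Cyp26c1 call was lost without libraries 1 and 2 of batch B (-1.001, edgeR adjusted p = 0.0806) and with DESeq2 (adjusted p = 0.0639). In Sox2-negative cells Cyp26a1 was higher in batch B (1.06, SE 0.27, edgeR adjusted p = 0.0108), where 11.2% of all genes tested differed (5.85% higher, 5.35% lower), and that call too was lost without libraries 1 and 2, with a difference of 0.91 (edgeR adjusted p = 0.179) over the 2 Sox2-negative libraries left in batch B. Marker lists of other cell types moved between the same batches. In Sox2-positive cells, glial and neural crest markers summed to 1070 to 1286 CPM in batch A and to 68.7 to 99.2 CPM in batch B, with 6 of 6 lower. Ameloblast markers summed to 289 to 350 CPM and to 6.87 to 10.2 CPM, with 4 of 4 tested lower and Enam and Mmp20 at or under 3 counts in every batch B library. Of the mesenchymal markers, 4 of 8 were lower, and Twist1 was at or under 3 counts in every library of both Sox2-positive groups. Skeletal muscle markers summed to at most 4.15 CPM in batch A and to 171 to 295 CPM in batch B, with 4 of 4 higher. Pericyte and smooth muscle markers summed to 57.0 to 91.9 CPM in batch A and to 253 to 298 CPM in batch B, with 2 of 3 tested higher. In Sox2-negative cells, epithelial markers summed to 144 to 254 CPM in batch A and to 341 to 391 CPM in batch B, with 3 of 8 higher and Cldn7 at or under 3 counts in every library. Leukocyte markers summed to 2210 to 2620 CPM and to 465 to 548 CPM, with 3 of 5 lower. Erythroid markers summed to 982 to 1175 CPM in batch A and to 53603 to 62032 CPM in batch B, with 5 of 6 higher, and all 4 endothelial markers were lower in batch B. The part of these cell types in the batch differences of the members was not tested.

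Compared per length within a group, the order of the members differed between the populations. Batch A Sox2-positive libraries had Crabp1 (265 ± 23.1 CPM per kilobase, SD, n = 6), Crabp2 (239 ± 9.66), Cyp26a1 (233 ± 18.5) and Cyp26c1 (137 ± 10.4) at the top. The ranges of Crabp1 and Crabp2 overlapped, and so did those of Crabp2 and Cyp26a1. Batch B Sox2-positive libraries had Crabp2 first (259 ± 39.1, n = 7), then Crabp1 (178 ± 14.7), Cyp26a1 (160.2 ± 6.65) and Cyp26c1 (56.9 ± 21.6). There the ranges of Crabp1 and Cyp26a1 overlapped and those of Crabp2 and Crabp1 did not. The lower members of both Sox2-positive groups were Aldh1a3, Rarb, Aldh1a1, Aldh1a2 and Cyp26b1, with Rarb above Aldh1a3 in batch B only. In Sox2-negative libraries Crabp1 was first (182 ± 35.0 in batch A, n = 6, and 179.7 ± 23.8 in batch B, n = 4). It was followed by Crabp2 (65.1 ± 16.4) and Aldh1a3 (61.5 ± 21.2) in batch A, with overlapping ranges, and by Aldh1a3 (95.2 ± 21.0) and Crabp2 (52.1 ± 14.1) in batch B, whose ranges did not overlap. With the median transcript length in place of the longest, Aldh1a3 ranked first in batch B Sox2-negative and second in Sox2-negative libraries of batch A.

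The rest of the pathway was followed in 4 lists of 43 further genes, of which 31 were past the filter over all libraries. In the fit of both batches 7 were higher and 10 lower in Sox2-positive cells, and 14 did not pass, with a median log2 difference of -0.11 against -0.12 over all genes tested. This share of calls is close to the 57.5% of all genes. Genes are named below where they were called with one sign in both batches and in the combined fit, or where they are a receptor or a main step of the pathway.

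Genes of retinol uptake and storage gave 0 higher and 2 lower of 5 tested (10 listed). Rbp7, a retinol carrier inside cells, was lower in Sox2-positive cells (combined log2 difference -4.42, SE 0.76, edgeR adjusted p = 1.78e-05). Stra6, the cell surface importer of retinol, had a combined difference of -1.52 (SE 0.76, edgeR adjusted p = 0.0865) and was lower in batch B alone (-1.24, SE 0.39, edgeR adjusted p = 0.0137). Rbp4, the retinol carrier of the blood, and Lrat, which esterifies retinol for storage, were not past the filter, with at most 5.81 and 1.75 CPM in any library.

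Among enzymes that convert retinol and retinaldehyde into each other, 4 were higher and 1 lower of 8 tested (11 listed). Rdh10, the dehydrogenase that supplies retinaldehyde for retinoic acid synthesis in the embryo, was the lower one. Sox2-negative libraries averaged 52.5 ± 19.9 CPM in batch A and 77.0 ± 17.0 in batch B, and Sox2-positive libraries 10.8 ± 6.24 and 6.42 ± 3.48 (combined -2.87, SE 0.31, edgeR adjusted p = 1e-08). Dhrs3, a reductase that turns retinaldehyde back into retinol, was higher in Sox2-positive cells, at 174 ± 32.8 CPM in batch A, where Sox2-negative libraries had 92.9 ± 26.1, and at 121 ± 11.8 CPM in batch B, where they had 39.0 ± 12.5 (1.23, SE 0.16, edgeR adjusted p = 2.46e-07). Adh5, an alcohol dehydrogenase of broad expression, was higher as well (0.82, SE 0.11, edgeR adjusted p = 4.75e-07). Thus Rdh10 and Dhrs3, which carry out the step between retinol and retinaldehyde in opposite directions, also differed in opposite directions between the populations.

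The list of receptors, carriers to receptors and coregulators had 13 of 13 genes tested, with 2 higher and 4 lower. Rara, a receptor, was higher in the combined fit (0.70, SE 0.22, edgeR adjusted p = 0.00787), as in batch B (1.16, edgeR adjusted p = 0.000442), and had 0.39 in batch A (edgeR adjusted p = 0.37). Rarg, the third retinoic acid receptor, was lower in the combined fit (-0.58, SE 0.20, edgeR adjusted p = 0.0164) and in batch B (-0.82, edgeR adjusted p = 0.0273), with -0.30 in batch A (edgeR adjusted p = 0.35). The partner receptors Rxra (0.22, edgeR adjusted p = 0.214), Rxrb (0.37, edgeR adjusted p = 0.28) and Rxrg (-0.12, edgeR adjusted p = 0.914) did not pass in the combined fit. Rxrg had 19.6 ± 4.87 CPM in Sox2-positive libraries of batch A (n = 6) and 1.16 ± 1.51 CPM in Sox2-positive libraries of batch B (n = 7), a difference that passed (-4.12, SE 1.05, edgeR adjusted p = 0.0094). The glial and neural crest markers were also lower in batch B, with the values given above, and their part in this was not tested. Fabp5, a carrier of fatty acids and retinoic acid, was higher in Sox2-positive cells (1.61, SE 0.12, edgeR adjusted p = 5.81e-12), and Ncoa2, a coactivator of nuclear receptors, was lower (-1.46, SE 0.24, edgeR adjusted p = 8e-06).

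Genes that retinoic acid induces in other systems gave 1 higher and 3 lower of 5 tested (9 listed). Meis1, a homeobox gene, was higher in Sox2-positive cells, at 112 ± 21.0 CPM in batch A and 155 ± 15.7 in batch B, where Sox2-negative libraries had 6.24 ± 10.7 and 3.03 ± 2.87 (combined 4.78, SE 0.55, edgeR adjusted p = 3.67e-08). Tgm2, a transglutaminase, was lower, at 7.37 ± 5.73 CPM in batch A and 0.876 ± 0.816 in batch B, where Sox2-negative libraries had 45.0 ± 15.2 and 36.2 ± 16.2 (-3.77, SE 0.47, edgeR adjusted p = 1.33e-07). Among the members, Rarb and Cyp26a1 are also known to be induced by retinoic acid. Both were higher in Sox2-positive cells in the combined fit, but Rarb was not called in batch A alone (1.47, edgeR adjusted p = 0.231). Genes of this kind thus differed in both directions, and a response to retinoic acid was not tested.

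**Figure D4:**
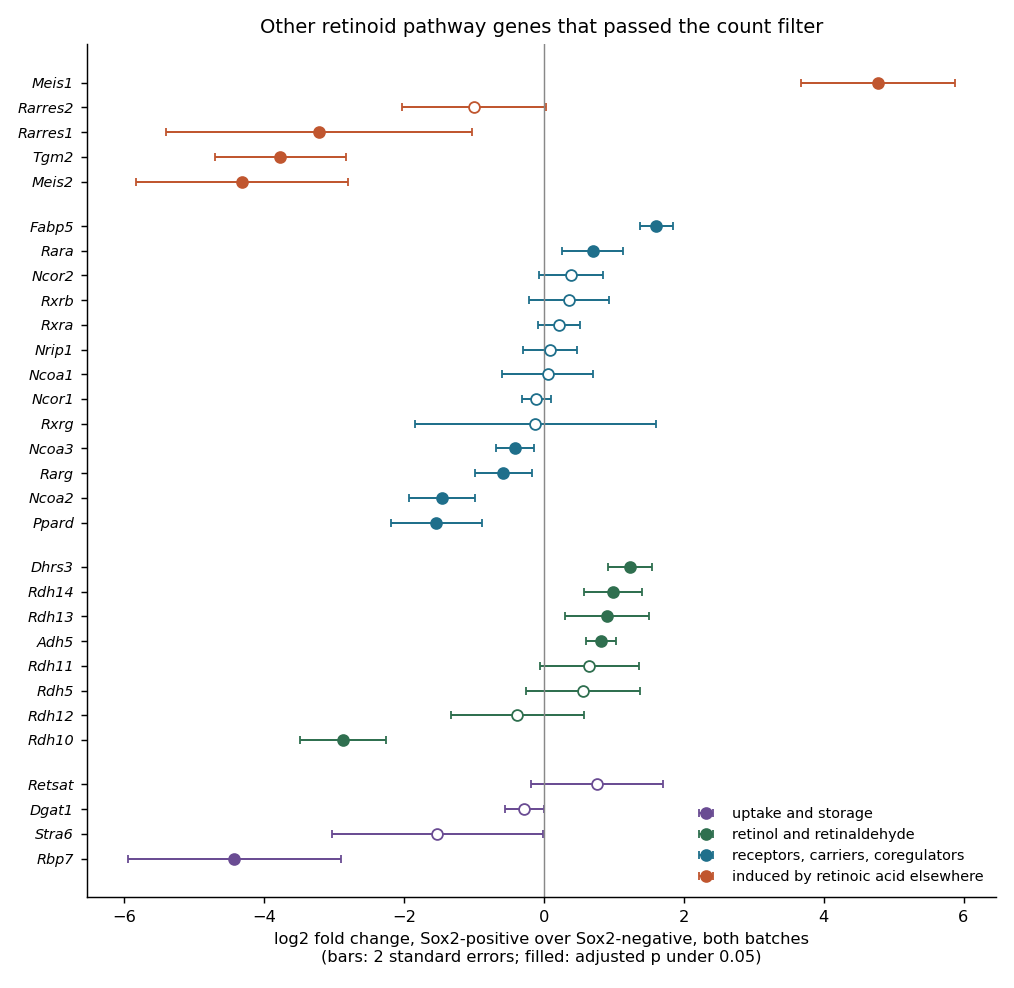
Log2 fold change in the fit of both batches, Sox2-positive over Sox2-negative, of further pathway genes past the filter, grouped by list, with bars of 2 standard errors and filled symbols for an adjusted p under 0.05. Rdh10 lies below 0 and Dhrs3 above 0 in the retinol and retinaldehyde list, and 7 of the 13 genes of the receptor list have open symbols.

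The genes whose log2 CPM followed each member most closely over the 23 libraries were picked from the 17190 genes past the filter. These correlations are descriptions over libraries that fall into 4 groups, so a high value mostly shows that 2 genes order the groups alike. Smpd3 (Pearson r = 0.984), Plac8 (0.983) and Foxf2 (0.983) were closest to Aldh1a2, and Klf4 (0.959), Pcolce (0.959) and S100a4 (0.958) to Aldh1a3. Ret (0.853), Gm13446 (0.845) and Gm9978 (0.828) were closest to Aldh1a1. For the breakdown enzymes, Tbx1 (0.968), 4833439L19Rik (0.962) and Pigh (0.958) were closest to Cyp26a1, Moxd1 (0.972), Cadm1 (0.971) and Zbtb20 (0.962) to Cyp26c1, and Vpreb3 (0.943), Runx2os1 (0.942) and Pik3r1 (0.941) to Cyp26b1. Neither of the neighbours Cyp26a1 and Cyp26c1 was among the 3 genes closest to the other. Ubb (0.974), Rpl4 (0.968) and 1500009L16Rik (0.966) were closest to Crabp2, Bcas1 (0.871), Tmprss5 (0.851) and Col28a1 (0.842) to Crabp1, and Tmtc1 (0.923), Lmntd2 (0.893) and Pdlim7 (0.892) to Rarb. The lowest top correlations belonged to Aldh1a1 and Crabp1.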

How the data were processed

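Per the submitters' processing notes, reads were handled with FastQC, Trimmomatic and Salmon against mm10; versions are not given in the sources used here. The authors deposited a table of estimated counts for 54347 genes in 23 libraries. Almost no value is whole, so values were rounded before testing. Why they are not whole is not stated in the sources used here. A per-gene adjustment may be part of the values, so a count here is an estimate and not a number of reads, and the floor of 3 counts and levels per length refer to such estimates. Gene symbols came from GENCODE M21 by identifier without version (99.5% matched), and per-sample columns left unused numbered 0. Each fit used edgeR 4.0.16 (R 4.3.3), TMM scaling, filterByExpr with a minimum count of 10, the quasi-likelihood F test and Benjamini-Hochberg adjustment over all genes tested, with calls at an adjusted p under 0.05. All tests were two-sided, and fits were tested on simulated data. Each edgeR SE was taken as the absolute log2 difference divided by the square root of its F value. This is an approximation that can be off for differences near 0. CPM used the scaled totals of the 23-library fit. Libraries of a group differed by more than counting noise in each of 57 pairs (chi-square over its degrees of freedom at least 5.19). Promoter sequences were RefSeq's. The members, gene lists and marker lists were chosen with earlier results of these data known. Pathway genes were named when called with one sign in each batch and in the combined fit, at most 4 per list, with the receptors, Rdh10, Dhrs3, Rbp4, Stra6 and Lrat named whatever their result, as were the 3 genes most correlated with each member; 1 gene of these lists is not reported here. Alternatives were DESeq2 1.42.0, other scalings, no filter, a replicate block and leaving out libraries.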

Additional observations from a re-analysis of the deposited data

Results flagged for a closer look

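In 8 of 36 sets of libraries (9 members in 4 groups), the highest or lowest library stood apart from the rest of its group by Dixon's test, which flags about 1 in 20 sets by chance. That rate does not apply to 3 of the 8, in which most libraries were at 0 and any library with a few counts stands apart: Aldh1a2 in both Sox2-positive groups and Cyp26b1 in that of batch A. Aldh1a2 stood apart in batch A Sox2-positive replicate 3 (0.750 CPM, highest) and in batch B Sox2-positive replicate 6 (1.82 CPM, highest). The latter library was also the lowest of its group for Aldh1a3, at 16.7 CPM. Batch A Sox2-positive replicate 3 was likewise the only library of its group with Cyp26b1 counts, at 1.32 CPM. Crabp1 was lowest in batch B Sox2-positive replicate 7, at 118 CPM, and Cyp26a1 was lowest in batch B Sox2-negative replicate 3, at 57.5 CPM. Rarb was highest in batch A Sox2-negative replicate 1, at 29.2 CPM, and in batch B Sox2-positive replicate 5, at 74.6 CPM.

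The population difference was not the same size in the 2 batches for Aldh1a3 (interaction -1.63 on the log2 scale), Cyp26a1 (-1.60) and Cyp26c1 (-2.26), each by edgeR's test of the interaction.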

How the results depend on the processing

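Library numbers recur across the groups, and no label makes them pairs. Deviations of same-numbered libraries correlated between -0.0212 and 0.0444, so the numbers were not taken as pairs, and 1 of 10 numbers correlated best with its own. With a replicate block, 8 members were called in batch A, 8 in batch B and 9 in the combined fit. Among all genes tested, these fits called 5829 of 14296, 6532 of 15230 and 8812 of 16977. The block kept only numbers found in both populations of a batch, so batch B Sox2-positive libraries 5, 6 and 7 were left out. In those fewer libraries, genes with an interaction fell from 1210 to 536, and 2 of 3 member interactions were still called. For members not called, the interaction under the block was -1.31 for Aldh1a2 and -0.0309 for Rarb, both opposite in sign to the main fit. Without the block but also without batch B Sox2-positive replicate 6, the Aldh1a2 interaction was -1.74. Effects of the block and of the libraries left out with it cannot be told apart here. Leaving out the batch B libraries numbered 1 and 2, from both populations at once, gave the fewest genes called in comparisons of batches. That setting removed more libraries than the leave-one-out fits, and no other set of its size was left out. The part of these libraries and that of the lower number of libraries therefore cannot be told apart. Without libraries 1 and 2 of batch B, 481 genes and 1 member had an interaction. Differences between batches then numbered 754 genes (from 1924) and 0 members (from 1) in Sox2-negative cells, and 1159 genes (from 1785) in Sox2-positive cells. Without the filter, 2 members differed between batches in Sox2-negative cells, and leaving out single libraries gave 1 to 2.

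Sign changes were seen only for differences that were not called, and the cause was not tested. For Crabp1 in batch B the difference was -0.00282 with DESeq2, -0.00433 with RLE size factors and -0.15 without libraries 1 and 2, and -0.00815 to 0.14 over single libraries left out. Between batches, Crabp1 was 0.14 and Rarb 0.0812 in Sox2-negative cells and Crabp2 -0.00891 in Sox2-positive cells without libraries 1 and 2, and Aldh1a2 was -0.0767 in Sox2-negative cells with total-count scaling. Leave-one-out ranges that crossed 0 for the interaction were -0.58 to 2.16 (Rarb), -0.32 to 3.55 (Cyp26b1) and -1.74 to 2.35 (Aldh1a2). In Sox2-negative cells between batches they were -0.12 to 0.27 (Aldh1a2), -0.0952 to 0.0602 (Crabp1), -0.88 to 1.84 (Rarb) and -0.75 to 0.18 (Cyp26b1). In Sox2-positive cells they were -0.62 to 3.22 (Cyp26b1) and -1.67 to 2.43 (Aldh1a2).

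Total-count scaling moved the median of all genes between batches in Sox2-negative cells to -0.15 and lowered the share of calls that were higher from 52.2% to 32.3%, and from 46.7% to 35.4% in Sox2-positive cells. Members near the floor in a group (Aldh1a2, Cyp26b1, Aldh1a1, and Cyp26c1 in batch A) have differences whose size is limited by depth.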

Other observations

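The protein-coding genes that flank the Cyp26c1 and Cyp26a1 pair on chromosome 19 were looked at after the values of the pair were seen. Exoc6, an exocyst subunit, was higher in Sox2-positive cells in the fit of both batches (log2 difference 2.65, edgeR adjusted p = 1.65e-05), with 2.81 in batch A and 2.55 in batch B. Myof, a membrane repair protein, was lower (-1.77, edgeR adjusted p = 2.86e-06), with -2.43 in batch A and -0.89 in batch B.

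Besides Cyp26a1 and Rarb, 26 genes held a direct repeat spaced by 5 bases in the searched promoter window. Only 3 of them were past the filter, so they allow no comparison with the members. Prokr2 (-5.67, edgeR adjusted p = 1.34e-07) and Blvrb (-1.88, edgeR adjusted p = 3.43e-09) were lower in Sox2-positive cells, and Cfap45 had a difference of -1.33 (edgeR adjusted p = 0.0571).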
